A study of Mus musculus with 28 samples.

Results

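The cellular response to hypoxia was followed through 9 genes in murine bone marrow-derived macrophages (BMDMs): the HIF-α subunit genes Hif1a and Epas1, the prolyl hydroxylase genes Egln1 and Egln3, and the hypoxia-response genes Vegfa, Adm, Bnip3, P4ha1 and Ankrd37. They were taken by symbol from the 54532 genes of the count table, and all 9 were found in the GENCODE M21 annotation of GRCm38. The 28 cultures were BMDMs grown with M-CSF from the marrow of C57/B6JB mice of 8 to 12 weeks, then kept in fresh medium with calcium chloride and PBS (control), 10 µg/ml of plasma-derived von Willebrand factor (pd-VWF, of human origin) or 100 ng/ml of bacterial lipopolysaccharide (LPS). The age is the one given for the marrow, and the opening of the study's methods gives a younger range for all mouse experiments. Each time point, 3.5 h and 16 h, had 5 cultures with PBS, 5 with VWF and 4 with LPS. The labels call the cultures biological replicates but do not tie them to animals, so that a p value here measures the spread between these cultures, and in bulk RNA fewer cells of a type and less RNA per cell cannot be told apart.

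HIF-1α, encoded by Hif1a, and HIF-2α, encoded by Epas1, are transcription factor subunits that are made continuously and destroyed when oxygen is present. The prolyl hydroxylases PHD2 (Egln1) and PHD3 (Egln3) mark them for that destruction, and Egln3 is itself a gene that HIF switches on. In macrophages, NF-κB signalling is known to raise Hif1a transcription, and HIF-1 is known for driving glycolytic and angiogenic genes. HIF acts mostly through the stability of its α subunits, so mRNA counts report the transcripts and not the proteins.

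The promoters are shown first, because the hypoxia response element to which HIF binds has a short core, ACGTG or GCGTG, that can be looked for in them. The RefSeq table of GRCm38.p6 held a start site for 8 of the 9 genes, all but Epas1, and 2 start sites for Vegfa. Printed below are the 250 bases before the start site of Hif1a and of the 5 genes at which the LPS effect was called higher at 16 h than at 3.5 h, with each core in capitals on either strand (CACGT and CACGC are the cores read on the other strand). The windows lie at chr12:73907617-73907866 (plus strand) for Hif1a, chr12:54203875-54204124 (minus strand) for Egln3, chr17:46032378-46032627 (minus strand) for the first start site of Vegfa, chr7:138909507-138909756 (minus strand) for Bnip3, chr10:59323046-59323295 (plus strand) for P4ha1 and chr8:45999851-46000100 (minus strand) for Ankrd37. Each is written 5′ to 3′ on the strand of its gene.
Hif1a: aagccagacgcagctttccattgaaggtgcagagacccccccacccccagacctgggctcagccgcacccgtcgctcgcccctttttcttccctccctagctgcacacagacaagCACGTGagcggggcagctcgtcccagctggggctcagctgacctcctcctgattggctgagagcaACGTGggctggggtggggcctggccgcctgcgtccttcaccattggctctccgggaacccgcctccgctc
Egln3: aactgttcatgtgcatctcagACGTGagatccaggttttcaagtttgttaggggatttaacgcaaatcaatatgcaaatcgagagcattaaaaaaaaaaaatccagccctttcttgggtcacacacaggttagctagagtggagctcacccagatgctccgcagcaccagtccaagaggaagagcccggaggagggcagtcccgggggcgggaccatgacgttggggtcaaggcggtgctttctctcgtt
Vegfa: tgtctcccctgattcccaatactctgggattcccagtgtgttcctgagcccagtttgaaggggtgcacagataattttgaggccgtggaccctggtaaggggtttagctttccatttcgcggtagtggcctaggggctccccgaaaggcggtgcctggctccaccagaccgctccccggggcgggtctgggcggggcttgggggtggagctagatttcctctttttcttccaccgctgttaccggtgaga
Bnip3: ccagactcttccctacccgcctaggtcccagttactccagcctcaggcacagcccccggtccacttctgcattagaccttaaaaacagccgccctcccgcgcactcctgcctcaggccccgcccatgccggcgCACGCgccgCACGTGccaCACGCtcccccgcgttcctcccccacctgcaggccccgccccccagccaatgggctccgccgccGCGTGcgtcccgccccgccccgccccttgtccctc
P4ha1: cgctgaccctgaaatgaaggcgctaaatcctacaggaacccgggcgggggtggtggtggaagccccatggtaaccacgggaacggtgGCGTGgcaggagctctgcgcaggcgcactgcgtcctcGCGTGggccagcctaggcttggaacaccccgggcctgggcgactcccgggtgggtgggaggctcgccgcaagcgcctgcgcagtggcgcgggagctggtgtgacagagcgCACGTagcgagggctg
Ankrd37: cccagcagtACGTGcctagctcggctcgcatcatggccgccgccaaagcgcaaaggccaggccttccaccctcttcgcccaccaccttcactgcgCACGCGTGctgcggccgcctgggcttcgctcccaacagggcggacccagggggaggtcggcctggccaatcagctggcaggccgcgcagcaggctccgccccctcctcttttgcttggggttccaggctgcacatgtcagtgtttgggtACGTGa

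Bnip3 held 5 core positions, 2 of them the strands of a palindrome whose ACGTG began 107 bases before the start site. Ankrd37 held 4, the nearest 6 bases before the start site, and P4ha1 held 3, the nearest 16 bases before it. Hif1a also held 3, with the ACGTG of a like palindrome 134 bases before its start site. Adm and Egln1 held 2 each, Egln3 held 1, 229 bases away, and Vegfa held 0 before its first start site and 2 before its second. That second Vegfa window, at chr17:46025164-46025413, lies within the span of the gene itself, downstream of the first start site. Among all 32851 promoter windows of this length, 38.6% held at least 1 core, 16.7% at least 2 and 6.58% at least 3. An NF-κB pattern, GGG followed after any 5 bases by CC, was searched on both strands. It was found in all 7 genes other than Adm, in Vegfa before the first start site alone, and in 45.8% of all windows. A match describes these letters and is not evidence of binding, and a window without one says nothing about sites elsewhere.

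**Figure D1:**
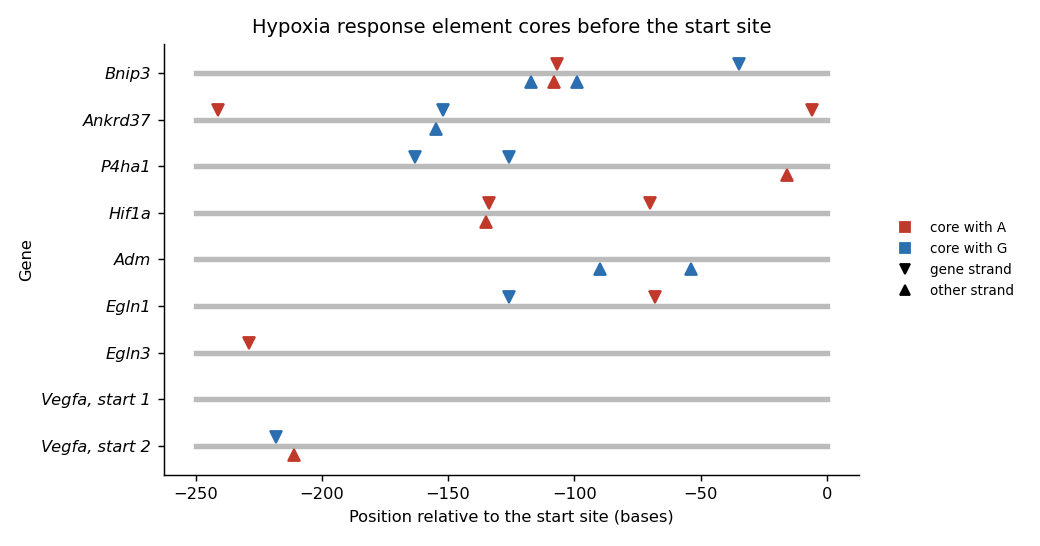
Positions of hypoxia response element cores in the 250 bases before each RefSeq start site (x axis, bases relative to the start site at 0), 1 line per gene or start site; red marks the core with A, blue the core with G, triangles pointing down the strand of the gene and triangles pointing up the other strand. Bnip3 held 5 positions and the first start site of Vegfa none.

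Expression is given in CPM, counts per 1000000 reads of a library, scaled by TMM factors over the 28 cultures. Differences are log2 fold changes from the edgeR quasi-likelihood test, and the adjusted p is by the Benjamini-Hochberg method over all genes tested. The standard error (SE) was derived as the absolute log2 fold change divided by the square root of the F statistic of that test. A gene was called at an adjusted p under 0.05 and an absolute log2 fold change of at least 1. A comparison kept genes that reached 10 TPM, a per-length share of transcripts computed from counts and exon lengths, in at least 1 of its cultures. On this per-length scale, Epas1 reached at most 6.85 TPM in any culture and was under the filter in every comparison. Egln3 passed only where LPS-treated cultures at 16 h were included, Adm only where the 3.5 h cultures of control or VWF were, and Ankrd37 only with control or LPS at 16 h. Such a gene passes through the group where it is high. For Epas1, Egln3, Adm and Ankrd37 the main fold changes therefore come from a fit without the filter, as do the counts over all 9 genes. Some alternatives given for these genes come from the fit with the filter. Counts with the filter hold such genes where they passed, so a call of one of them there is not separate support. Values of the other 5 genes come from the fit with the filter unless stated.

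Depth ranged from 41131209 to 77699206 counts per culture. TMM factors were lower in LPS-treated cultures (0.735 to 0.848) than in controls (0.945 to 1.18). The library of Control 16 h replicate 5 stood apart, with the factor of 0.945 where the other 4 had 1.17 to 1.18, and with a chi-square per degree of freedom of 569 to 743 against those 4, which differed among themselves by 17.1 to 45.3. LPS 16 h replicate 4 differed from its group by 265 to 469, against 46.4 to 94.0 among the other 3. Without Control 16 h replicate 5, the genes with an edgeR adjusted p under 0.05 at 16 h went from 2163 to 3282 for VWF and from 4293 to 4908 for LPS, and those called from 679 to 689 and from 2210 to 2259. Results that rest on either library are given with and without it where a call changed. Values that were not called also moved by over 1.5 times in places, and only some of those are given. With library size scaling alone, the median over the genes tested moved, in log2 fold change, from 0.00 to −0.22 for VWF against control at 3.5 h, from −0.02 to −0.54 for LPS at 3.5 h and from −0.03 to −0.57 for LPS at 16 h, and from 0.02 to 0.30 and from 0.00 to 0.44 for VWF against LPS at 3.5 h and 16 h. All 7 macrophage markers, among them Adgre1 and Csf1r, exceeded 1 CPM in at least 1 culture of every group, with sums of 4858 to 25694 CPM. These sums were 18358 to 25694 CPM with VWF at 16 h, above every culture of the other groups, and 13521 to 16238 in 4 controls at 16 h but 4858 in replicate 5, 6477 to 11906 with LPS at 16 h, and 7157 to 13692 at 3.5 h. Lyz2 was the largest part, at means of 10131 (control), 16746 (VWF) and 3807 CPM (LPS) at 16 h. Against control at 16 h, Adgre1, Csf1r, Itgam and Fcgr1 also had higher means with VWF, whereas Cd68 was near equal (742 against 723) and Mertk lower (42.0 against 60.2). With LPS at 16 h, Csf1r was lower as well as Lyz2, and Adgre1, Itgam, Cd68, Mertk and Fcgr1 were higher. T cell, B cell and mast cell markers summed to at most 0.655 CPM. The fibroblast markers Col1a1, Col3a1 and Pdgfra were all above 1 CPM in at least 1 culture of every group (sums of 6.55 to 194 CPM). The endothelial markers summed to 53.0 to 81.9 CPM in LPS-treated cultures at 16 h and to at most 12.8 CPM elsewhere. With LPS at 16 h the means were 55.1 CPM for Kdr, 10.996 for Pecam1, 1.248 for Cdh5 and 0 for Tek. In controls at 16 h they were 1.028, 1.099, 0.108 and 0.0327 CPM in that order. Cdh5 was higher at 3.5 h, at means of 2.364 CPM with VWF and 2.238 CPM with LPS. The dendritic cell markers summed to 12.9 to 29.8 CPM in the LPS groups and VWF at 3.5 h and to at most 2.91 CPM in the other 3 groups. Most of the higher sums was Xcr1, at means of 22.6 and 20.1 CPM with LPS at 3.5 h and 16 h and 12.7 with VWF at 3.5 h. Group means of Flt3, Siglech and Zbtb46 were at most 0.083, 0.212 and 2.91 CPM. The neutrophil markers summed to at most 8.82 CPM in any culture, with Ly6g at 0 in 4 groups. Fibroblast sums overlapped between all groups. The part of other cells, and of the shift in macrophage marker sums with VWF at 16 h, in the results was not tested.

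Hif1a, on chr12:73901375-73947530, had its highest level in VWF-treated cultures at 3.5 h. At 3.5 h it stood at 149, 164, 128, 186 and 132 CPM in the 5 control cultures, at 277, 269, 275, 282 and 286 with VWF and at 186, 187, 224 and 199.9 in the 4 cultures with LPS. The VWF-treated cultures were close together and lay above every other culture of the series, and each LPS-treated culture lay above each control culture, though the nearest pair, at 186.04 and 185.92, was all but equal. The means were 152 ± 23.8 CPM (SD, n = 5), 278 ± 6.31 (n = 5) and 199 ± 18.0 (n = 4). VWF against control gave a log2 fold change of 0.90 (SE 0.10, edgeR adjusted p = 1.58e-05), short of the fold threshold, and LPS against control gave a log2 fold change of 0.41 (SE 0.12, edgeR adjusted p = 0.00876). The LPS value was −0.11 with library size scaling, so its direction depends on the scaling. VWF exceeded LPS by a log2 fold change of 0.50 (SE 0.08), with an edgeR adjusted p = 0.000359.

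At 16 h the order of the treatments was different. Hif1a read 75.7, 85.8, 63.6, 75.6 and 87.5 CPM in controls, 126, 107, 101, 119 and 78.5 with VWF and 205, 188, 184 and 218 with LPS. LPS-treated cultures lay above all others, whereas VWF-treated cultures overlapped with controls through 1 culture at 78.5 CPM. The means were 77.6 ± 9.63, 106 ± 18.4 and 199 ± 15.7 CPM. With LPS, Hif1a rose by a log2 fold change of 1.39 (SE 0.12, edgeR adjusted p = 6.32e-06), which was 0.86 with library size scaling, under the fold threshold. With VWF the difference from control was a log2 fold change of 0.44 (SE 0.13, edgeR adjusted p = 0.0309), and when each culture was left out in turn the adjusted p reached 0.0779. VWF was below LPS by a log2 fold change of −0.90 (SE 0.13, edgeR adjusted p = 0.000209). The exons of Hif1a overlap those of an antisense gene and of a second gene model over 8.11% of their length, and whether counting used the strand is not given in the sources used here.

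Epas1, on chr17:86753700-86833410, was the scarcer α subunit transcript, with a group mean of at most 5.11 ± 1.37 TPM beside 133 ± 14.7 TPM for Hif1a. At 16 h it read 7.86, 6.19, 5.50, 5.89 and 8.16 CPM in controls, 2.70, 2.12, 1.83, 1.35 and 2.65 with VWF and 2.65, 1.63, 0.791 and 0.907 with LPS. Every treated culture was below every control culture at that time, and the 2 treatments overlapped. Epas1 fell with VWF (−1.59, SE 0.21, edgeR adjusted p = 0.000141) and with LPS (−2.04, SE 0.35, edgeR adjusted p = 0.000554). At 3.5 h the 3 groups overlapped, between 4.41 and 12.8 CPM, with log2 fold changes of −0.28 for VWF and 0.07 for LPS that did not pass the test. The interaction with time was negative for both treatments, −1.30 (SE 0.29) for VWF (edgeR adjusted p = 0.00218) and −2.16 (SE 0.39) for LPS (edgeR adjusted p = 0.000229). Hif1a and Epas1 thus differed in direction at 16 h with LPS, where Hif1a rose and Epas1 fell.

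**Figure D2:**
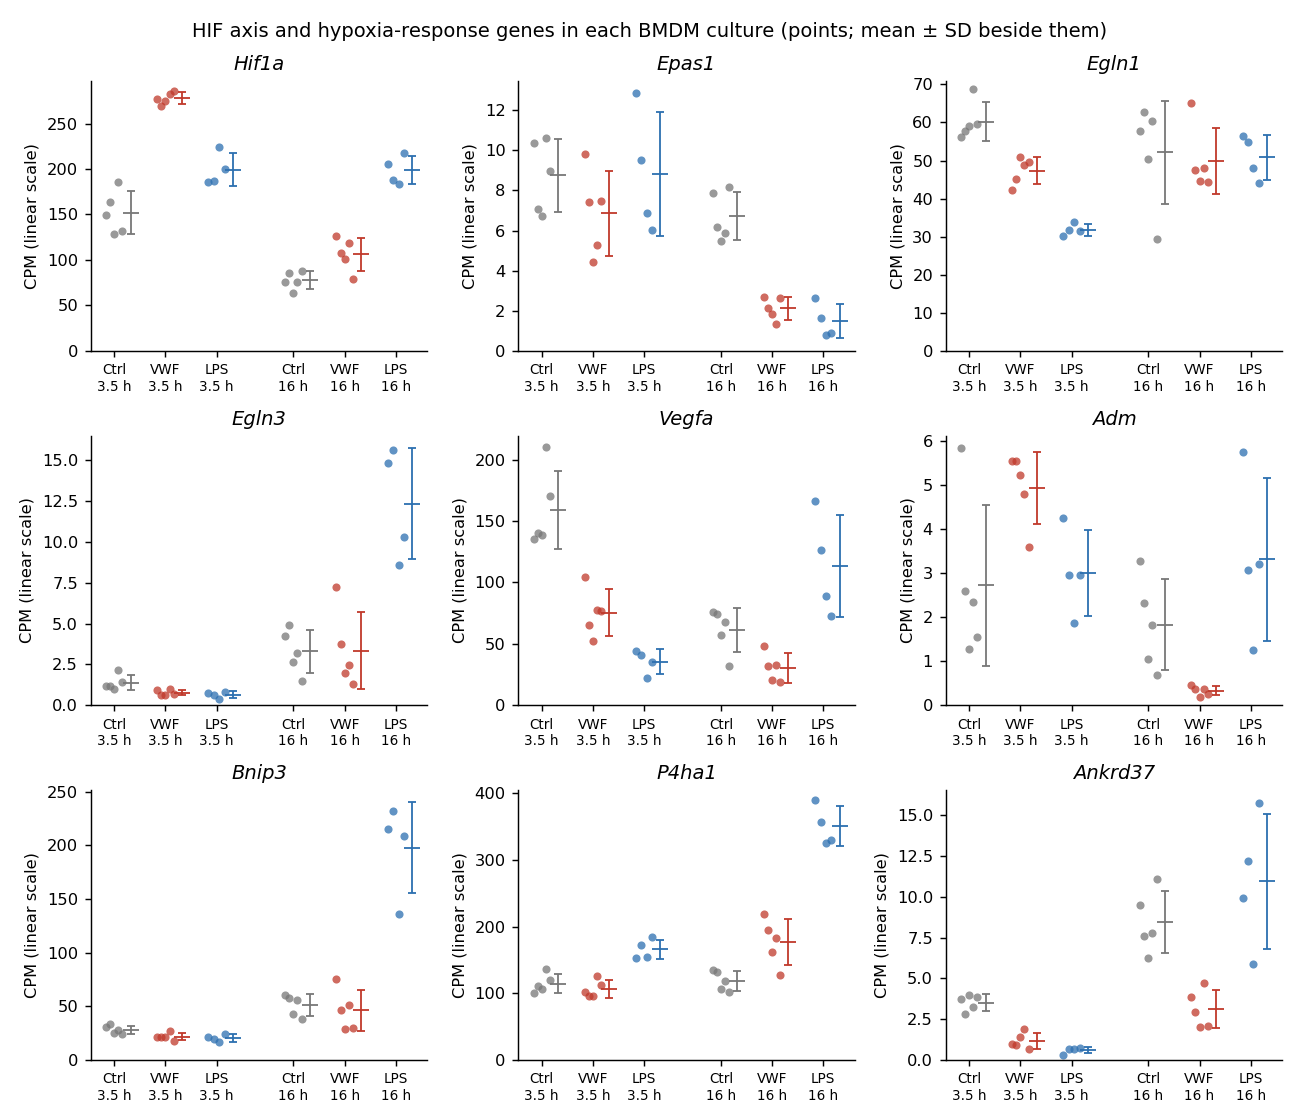
CPM (linear y axes) of the 9 genes in each of the 28 cultures, by group on the x axis; points are cultures, and the bar beside them is the mean with its SD. Hif1a was highest with VWF at 3.5 h (269 to 286 CPM), while Egln3, Bnip3 and P4ha1 were highest with LPS at 16 h without overlap with any other group.

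Egln1, the gene of the main oxygen-sensing hydroxylase PHD2, on chr8:124908587-124949324, was lowest with LPS at 3.5 h. It read 56.1, 57.7, 59.0, 68.9 and 59.5 CPM in controls, 42.3, 45.1, 50.8, 48.7 and 49.7 with VWF and 30.2, 31.7, 33.9 and 31.5 with LPS at that time. The 3 groups did not overlap, with control highest and LPS lowest. LPS against control gave a log2 fold change of −0.90 (SE 0.08, edgeR adjusted p = 1.96e-06) and VWF against control a log2 fold change of −0.32 (SE 0.08, edgeR adjusted p = 0.00474), neither reaching the fold threshold, although LPS passed it with library size scaling (−1.42). At 16 h the means were 52.1 ± 13.5 CPM in controls, 49.9 ± 8.71 with VWF and 50.9 ± 5.89 with LPS, and the groups overlapped. The log2 fold changes were −0.07 (SE 0.20) and 0.00 (SE 0.21). Control replicate 5 stood apart at 29.5 CPM, against 50.3 to 62.6 in the other 4, and without it the values were −0.22 and −0.15. The change of the LPS effect with time was 0.92 (SE 0.23, edgeR adjusted p = 0.00283), positive but short of the fold threshold.

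Egln3, the gene of PHD3, on chr12:54178981-54203860, was scarce in every group but 1. At 16 h it read 4.22, 4.90, 2.63, 3.19 and 1.51 CPM in controls, 7.22, 3.76, 1.97, 2.47 and 1.32 with VWF and 14.8, 15.6, 8.61 and 10.3 with LPS. The LPS-treated cultures were above all other cultures of the series in CPM, and the range of the VWF-treated cultures enclosed that of the controls. In TPM, LPS 16 h replicate 4 (6.75) lay below VWF 16 h replicate 1 (7.63). Egln3 rose with LPS by a log2 fold change of 2.03 (SE 0.32, edgeR adjusted p = 0.000276) and was lower with VWF than with LPS by a log2 fold change of −1.89 (SE 0.43, edgeR adjusted p = 0.00610). VWF against control gave 0.08 (SE 0.44) and changed sign under 5 of its alternatives. At 3.5 h the means were 1.38 ± 0.454 CPM in controls, 0.770 ± 0.165 with VWF and 0.650 ± 0.210 with LPS, with 14 to 161 counts per culture. Both treated groups lay below every control culture, and the log2 fold change was −1.02 (SE 0.33) for LPS (edgeR adjusted p = 0.0172), a call that was lost under DESeq2 or RLE factors (−0.97 each) and without Control 3.5 h replicate 4 (−0.83) or LPS 3.5 h replicate 3 (−0.84), and −0.77 (SE 0.26) for VWF (edgeR adjusted p = 0.0465), short of the fold threshold but −1.04 with library size scaling.

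Vegfa, which encodes the angiogenic growth factor VEGF-A, on chr17:46016993-46032369, fell with both treatments at 3.5 h. It read 136, 140.2, 139, 210.03 and 170.4 CPM in controls, 104, 64.9, 52.6, 77.9 and 76.8 with VWF and 44.5, 40.8, 22.1 and 35.1 with LPS. The 3 groups did not overlap, in the order control, VWF, LPS. The fall with VWF was a log2 fold change of −1.05 (SE 0.19, edgeR adjusted p = 0.000685), and it missed the fold threshold without Control 3.5 h replicate 4 (−0.95) or VWF 3.5 h replicate 3 (−0.94). The fall with LPS was a log2 fold change of −2.13 (SE 0.21, edgeR adjusted p = 4.30e-06) and was called with each culture left out. VWF exceeded LPS by a log2 fold change of 1.10 (SE 0.23, edgeR adjusted p = 0.00298), which missed the threshold without VWF 3.5 h replicate 1 (0.94) or LPS 3.5 h replicate 3 (0.93).

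At 16 h Vegfa separated the treatments. It read 76.2, 74.5, 56.8, 67.4 and 31.9 CPM in controls, 48.2, 31.9, 20.3, 32.6 and 18.6 with VWF and 166, 127, 88.6 and 72.5 with LPS. All LPS-treated cultures lay above all VWF-treated cultures in CPM, with control in between and overlapping with both. In TPM, LPS 16 h replicate 4 (29.5) lay below VWF 16 h replicate 1 (31.7). VWF was below LPS by a log2 fold change of −1.91 (SE 0.33, edgeR adjusted p = 0.000619), called with each culture left out. Against control, VWF gave a log2 fold change of −1.03 (SE 0.30, edgeR adjusted p = 0.0282), a call kept in 3 of 10 fits that left a culture out, lost without control replicates 1, 2 or 4 or VWF replicates 2, 3, 4 or 5 (lowest −1.05, highest −0.89), and lost without the filter (edgeR adjusted p = 0.0671). LPS gave a log2 fold change of 0.92 (SE 0.30, edgeR adjusted p = 0.0265), short of the fold threshold, and 0.36 with library size scaling (edgeR adjusted p = 0.373). Without the filter LPS gave 1.01 (SE 0.28, edgeR adjusted p = 0.0202), past the threshold in 5 of the 9 fits that left a culture out. Control replicate 5, at 31.9 CPM, was again the lowest control, and without it the values were −1.20 for VWF and 0.75 for LPS with the filter, and −1.12, then called (edgeR adjusted p = 0.0267), and 0.80, then not called, without it. Without LPS 16 h replicate 4 the LPS value was 1.08 with the filter (edgeR adjusted p = 0.0137), past the fold threshold.

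Adm, the gene of the vasoactive peptide adrenomedullin, on chr7:110627661-110629820, was scarce throughout. At 3.5 h it read 5.85, 2.60, 1.27, 2.34 and 1.54 CPM in controls, 5.54, 5.55, 5.23, 4.79 and 3.59 with VWF and 4.26, 2.97, 1.87 and 2.95 with LPS. The 3 groups overlapped, and 1 control culture at 5.85 CPM lay above every treated one. VWF against control gave a log2 fold change of 0.93 (SE 0.35, edgeR adjusted p = 0.0897), and without that culture, replicate 1, the value was 1.42 (edgeR adjusted p = 9.35e-05). LPS against control gave 0.20 (SE 0.41) and did not pass the test. At 16 h it read 3.27, 2.32, 1.04, 1.82 and 0.696 CPM in controls, 0.472, 0.379, 0.191, 0.373 and 0.256 with VWF and 5.75, 3.07, 1.25 and 3.20 with LPS. The VWF-treated cultures, with 12 to 32 counts each, lay below all others of the series. Adm fell with VWF by a log2 fold change of −2.40 (SE 0.43, edgeR adjusted p = 0.00158) and was below LPS by a log2 fold change of −3.30 (SE 0.40, edgeR adjusted p = 1.43e-05), whereas LPS against control gave 0.97 (SE 0.47) and did not pass the test. The interaction of VWF with time was −3.33 (SE 0.56), with an edgeR adjusted p = 0.000131.

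Bnip3, which encodes a mitochondrial protein of the mitophagy pathway, on chr7:138890836-138909519, was highest with LPS at 16 h. It read 60.4, 57.5, 42.8, 56.1 and 37.7 CPM in controls, 75.4, 46.4, 28.7, 50.7 and 29.9 with VWF and 215, 232, 136 and 208 with LPS. The LPS-treated cultures lay above all other cultures, and the other 2 groups overlapped. Bnip3 rose with LPS by a log2 fold change of 2.00 (SE 0.20, edgeR adjusted p = 2.02e-05) and was lower with VWF than with LPS by a log2 fold change of −2.10 (SE 0.29, edgeR adjusted p = 0.000158), while VWF against control gave −0.15 (SE 0.26), and −0.24 without Control 16 h replicate 5. At 3.5 h the group means were 27.9 ± 3.82 CPM in controls, 21.6 ± 3.27 with VWF and 20.2 ± 3.35 with LPS, and the groups overlapped. Both treatments gave values short of the fold threshold, −0.35 (SE 0.13) for VWF (edgeR adjusted p = 0.0424) and −0.45 (SE 0.14) for LPS (edgeR adjusted p = 0.0150). An antisense gene overlaps 22.3% of its exon length, and 6.90% of its windows of 100 bases also occur in other gene models, so its level is uncertain to that extent.

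P4ha1, a subunit gene of the collagen prolyl hydroxylase, on chr10:59323296-59373304, was highest with LPS at 16 h. It read 135, 132, 106, 118 and 102 CPM in controls, 219, 195, 161, 182 and 127 with VWF and 390.2, 357, 326 and 329 with LPS. LPS-treated cultures lay above all others, and 4 of the 5 VWF-treated cultures lay above all controls. P4ha1 rose with LPS by a log2 fold change of 1.60 (SE 0.12, edgeR adjusted p = 2.32e-06), and with VWF the difference was a log2 fold change of 0.57 (SE 0.15, edgeR adjusted p = 0.0172), under the fold threshold. VWF was below LPS by a log2 fold change of −0.98 (SE 0.15, edgeR adjusted p = 0.000269), just short of the fold threshold and past it in 4 of 9 fits that left out a culture, LPS replicate 4 among them (−1.02). At 3.5 h the means were 114 ± 14.2 CPM in controls, 106 ± 13.1 with VWF and 166 ± 14.8 with LPS. Every LPS-treated culture was above every other culture at that time in CPM, but in TPM they overlapped with controls (74.7 to 91.5 against 76.5 to 119). The log2 fold change was 0.56 (SE 0.10) for LPS (edgeR adjusted p = 0.000505), but 0.03 with library size scaling, and −0.08 (SE 0.10) for VWF.

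Ankrd37, which encodes an ankyrin repeat protein and is a known HIF-1 target, on chr8:45996902-46005707, fell with VWF at both times. At 3.5 h it read 3.70, 2.78, 3.98, 3.25 and 3.84 CPM in controls, 0.942, 0.875, 1.41, 1.86 and 0.635 with VWF and 0.308, 0.651, 0.675 and 0.704 with LPS. Both treated groups were below every control culture, and they overlapped with each other. The fall was a log2 fold change of −1.56 (SE 0.26, edgeR adjusted p = 0.000138) for VWF and a log2 fold change of −2.52 (SE 0.28, edgeR adjusted p = 5.90e-08) for LPS. At 16 h it read 9.50, 7.58, 6.25, 7.78 and 11.1 CPM in controls, 3.82, 2.96, 2.02, 4.74 and 2.07 with VWF and 9.94, 12.2, 5.85 and 15.8 with LPS. The VWF-treated cultures lay below all cultures of the other 2 groups, and control and LPS overlapped. Ankrd37 fell with VWF by a log2 fold change of −1.37 (SE 0.25, edgeR adjusted p = 0.00157) and was lower than with LPS by a log2 fold change of −1.82 (SE 0.30, edgeR adjusted p = 0.000317). LPS against control gave 0.50 (SE 0.26), 0.28 without LPS 16 h replicate 4, and −0.14 with library size scaling in the fit with the filter. The exons of Lrp2bp and Ufsp2 on the opposite strand overlap 26.4% of its exon length, and reads from them cannot be told apart without strand.

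**Figure D3:**
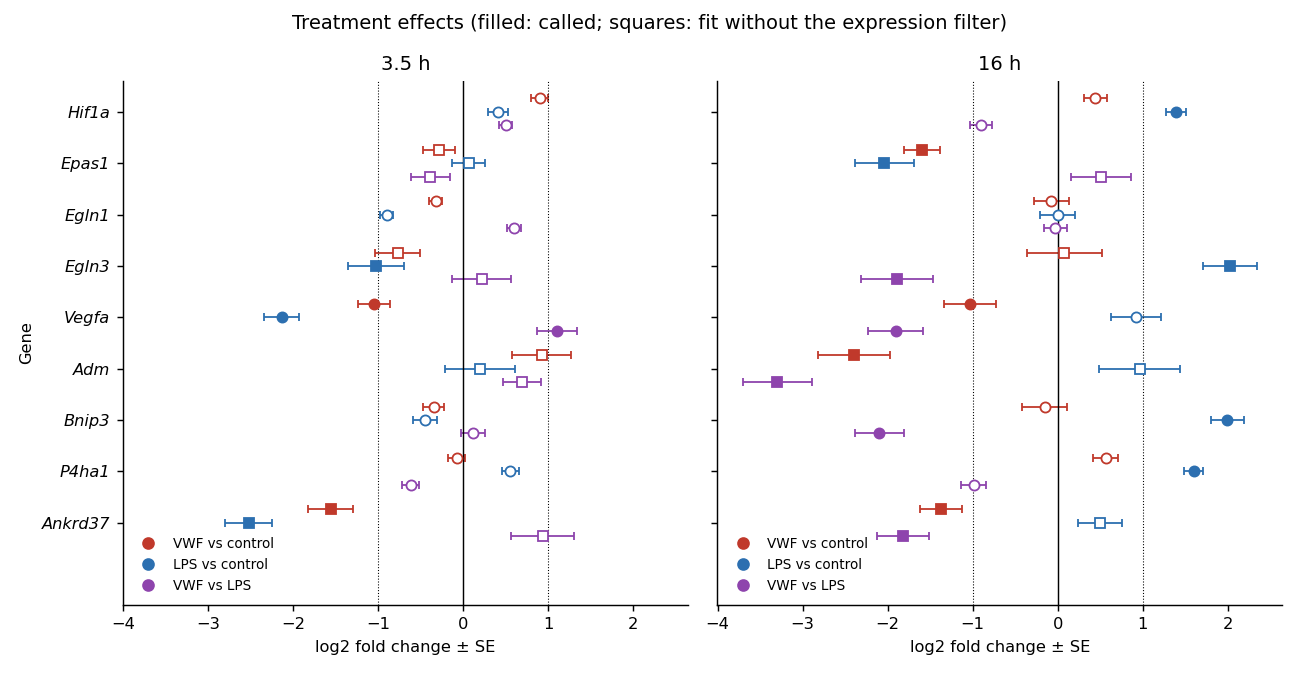
Log2 fold changes ± SE (x axes) of the 9 genes (y axis) at 3.5 h on the left and at 16 h on the right, for VWF against control in red, LPS against control in blue and VWF against LPS in purple. Filled symbols are called genes, squares come from the fit without the expression filter, and dotted lines mark the fold threshold. At 16 h VWF lay below LPS at Egln3, Vegfa, Bnip3 and Ankrd37 (−1.82 to −2.10) and at Adm (−3.30).

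The members were chosen with earlier results of these data known, so the shares of all genes beside their counts are a description. Shares without the filter are over every gene with at least 1 count in the comparison, sparse ones included. The filterByExpr rule of edgeR drops genes of low count. With it, 2099 of 14153 genes were called with VWF at 3.5 h and 1362 of 14376 at 16 h. With LPS, 3917 of 14265 and 4087 of 14624 were called. Counted over all 9 genes without the filter, VWF at 3.5 h gave calls at 2 of 9, Vegfa and Ankrd37, both lower, when 9.05% of all genes tested were called. In the fit with the filter the call was 1 of the 6 that could be tested, Vegfa, beside 14.7% of all genes. VWF at 16 h gave calls at 3 of 9 without the filter, Epas1, Adm and Ankrd37, all lower (5.21% of all genes), and 2 of 6 with it, Vegfa and Ankrd37 (8.71%). With the filter, the share called at 3.5 h was close to that of all genes. No member was called higher with VWF against control at either time in these fits, although with the filter Hif1a had an edgeR adjusted p under 0.05 in that direction at both times and P4ha1 at 16 h. LPS at 3.5 h gave calls at 3 of 9 without the filter, Egln3, Vegfa and Ankrd37, all lower (17.7% of all genes), and 1 of 6 with it (24.5%).

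LPS at 16 h gave calls at 6 of 9 without the filter, with Hif1a, Egln3, Vegfa, Bnip3 and P4ha1 higher and Epas1 lower, when 16.0% of all genes were called. With the filter the calls were Hif1a, Egln3, Bnip3 and P4ha1, 4 of 7 tested, beside 27.6% of all genes. Egln3 entered this and the other filtered fits with LPS at 16 h only through those LPS-treated cultures. Its calls there are therefore not separate support. VWF against LPS gave a call at 1 of 9 at 3.5 h, Vegfa (7.69% of all genes), and the same gene among 6 tested with the filter (11.4%). At 16 h it gave calls at 5 of 9, Egln3, Vegfa, Bnip3, Adm and Ankrd37, all lower with VWF (16.4% of all genes), and 4 of 7 with the filter (25.5%). The median log2 fold change over the 9 genes without the filter was 1.01 for LPS against control and −1.82 for VWF against LPS at 16 h, when the medians over all genes were −0.07 and 0.00.

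In control cultures, Hif1a and Vegfa declined from 3.5 h to 16 h and Egln3 and Ankrd37 increased. Without the filter these 4 of 9 were called, beside 5.72% of all genes, and with it 2 of 7, Vegfa (−1.37, SE 0.23, edgeR adjusted p = 0.00104) and Ankrd37, beside 9.11%. Ankrd37 gave 1.20 (SE 0.19, edgeR adjusted p = 0.000384). Hif1a gave −1.02 (SE 0.13) without the filter and −0.96 (SE 0.13) with it (−1.01, and called, without Control 16 h replicate 5), on either side of the fold threshold, and every culture at 16 h was below every culture at 3.5 h. Egln3 gave 1.21 (SE 0.31, edgeR adjusted p = 0.0149). Each treatment effect above is against the controls of its own time.

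With VWF, 7 of 9 were called between 3.5 h and 16 h without the filter, with Egln3, Bnip3 and Ankrd37 higher and Hif1a, Epas1, Vegfa and Adm lower at 16 h, when 15.2% of all genes were called. With the filter, 4 of 6 were called (21.4% of all genes). Hif1a fell by a log2 fold change of −1.38 (SE 0.11, edgeR adjusted p = 9.33e-07) and Adm by a log2 fold change of −3.92 (SE 0.25, edgeR adjusted p = 2.45e-10), with no overlap between the times. The rise of Bnip3 missed the fold threshold without VWF 16 h replicate 1 (0.86). With LPS, Hif1a did not pass the test (0.02, SE 0.10), and its means at the 2 times were 199 CPM each. Without the filter 6 of 9 genes were called with LPS, Epas1 lower and Egln3, Vegfa, Bnip3, P4ha1 and Ankrd37 higher at 16 h (17.2% of all genes), and with it the latter 5 of 7 (28.1%). Egln3 rose by 4.25 (SE 0.29), Ankrd37 by 4.23 (SE 0.35), Bnip3 by 3.32 (SE 0.20), Vegfa by 1.69 (SE 0.30) and P4ha1 by 1.11 (SE 0.10) on the log2 scale.

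Whether a treatment effect differed between the times was tested as an interaction. For LPS, 6 of 9 genes were called without the filter (12.6% of all genes) and 5 of 8 with it (26.3%). The effect at 16 h exceeded that at 3.5 h for Vegfa by 3.08 (SE 0.39), for Egln3 by 2.99 (SE 0.45), for Ankrd37 by 2.96 (SE 0.37), for Bnip3 by 2.45 (SE 0.25) and for P4ha1 by 1.06 (SE 0.16), with edgeR adjusted p values from 3.82e-07 for Bnip3 to 3.07e-05 for P4ha1. P4ha1 missed the fold threshold without Control 3.5 h replicate 4 (0.99) and, without the filter, without Control 16 h replicate 5 (0.97). Hif1a, at 1.00 (SE 0.18) with an edgeR adjusted p = 0.000161, was just under the fold threshold and passed it in 9 of 18 fits that left out a culture, Control 16 h replicate 5 among them (1.04). For VWF, 2 of 9 were called without the filter, Epas1 and Adm, both negative (6.58% of all genes), and 1 of 7 with it, Adm (13.5%). The VWF interaction of Hif1a was −0.44 (SE 0.17) and did not pass the test (edgeR adjusted p = 0.0614), while that of P4ha1 was 0.66 (SE 0.19, edgeR adjusted p = 0.00865), short of the fold threshold.

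**Figure D4:**
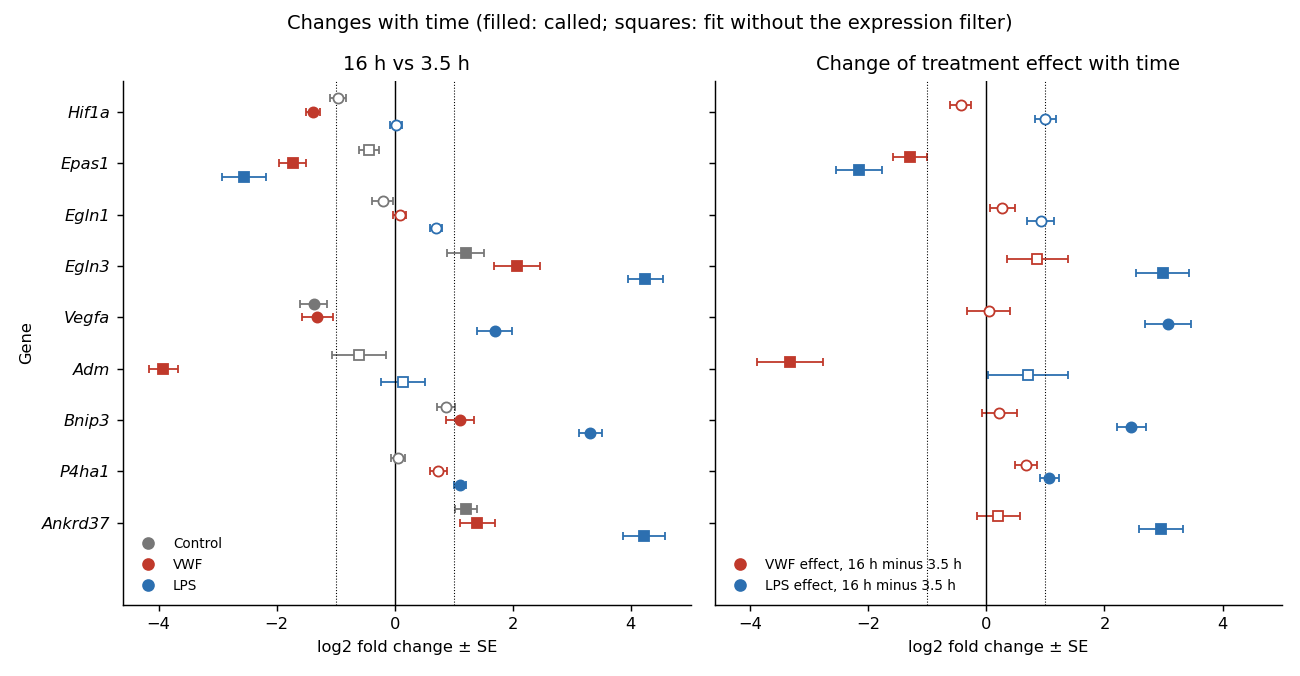
Left, log2 fold changes ± SE between 16 h and 3.5 h within the control group (grey), the VWF group (red) and the LPS group (blue); right, the change of the VWF and LPS effects with time (interaction ± SE). Filled symbols are called genes, squares come from the fit without the expression filter, and dotted lines mark the fold threshold. The LPS interaction was positive and called at Egln3, Vegfa, Bnip3, P4ha1 and Ankrd37 (1.06 to 3.08), and the VWF interaction at Adm was −3.33.

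The other genes of the pathway were read from 3 lists, of 15 genes of the HIF machinery, 17 glycolytic targets and 30 other targets. These lists too were chosen with earlier results of these data known, so shares of all genes beside them are a description. Of the machinery, which holds Arnt, Vhl and the cofactors of HIF, 11 or 12 genes passed the filter in each comparison, and Cited2 was the only gene called in any of them, when 8.71% to 28.1% of all genes with 10 TPM were called, although with library size scaling 1 gene was called lower with LPS at 16 h. Cited2, which encodes a competitor of HIF-α for the coactivator p300, rose with LPS at 3.5 h (2.52, SE 0.13, to 221 ± 31.4 CPM) and fell with VWF at 16 h (−1.44, SE 0.17, to 30.0 ± 5.26 CPM). Its interaction with time was −2.25 (SE 0.22) for VWF and −3.36 (SE 0.28) for LPS. The median log2 fold change of the tested machinery genes was 0.21 with VWF and 0.46 with LPS at 3.5 h and −0.06 and 0.19 at 16 h.

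All 17 glycolytic genes passed the filter against control. As read against the shares of all genes called with the filter, 14.7% and 8.71% with VWF and 24.5% and 27.6% with LPS at 3.5 h and 16 h, the list had 3 and 2 genes of 17 called with VWF and 3 and 8 with LPS. With VWF at 3.5 h, 3 rose and 0 fell, Hk2, Pfkl and Pfkfb3, and with library size scaling 1 did. At 16 h with VWF 1 rose, Hk2 (1.28, SE 0.23), and 1 fell, Pfkp (−1.59, SE 0.28), a phosphofructokinase subunit. With LPS, 1 rose and 2 fell at 3.5 h, Hk2 (1.82, SE 0.25) against Pfkfb4 (−1.77, SE 0.11) and Pgam1 (−1.23, SE 0.20). At 16 h, 6 rose and 2 fell with LPS, but 2 rose and 3 fell with library size scaling. The largest changes were those of Pfkfb3 (4.89, SE 0.29, from 28.6 ± 8.25 to 826 ± 174 CPM), Aldoc (−2.48, SE 0.16) and the lactate exporter gene Slc16a3 (1.74, SE 0.22). The median of the list was −0.07 and −0.10 at 3.5 h with VWF and LPS and 0.06 and 0.63 at 16 h.

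Of the 30 other targets, 22 to 26 passed the filter in each comparison. With VWF, 6 rose and 3 fell at 3.5 h (14.7% of all genes were called) and 2 rose and 2 fell at 16 h (8.71%), and with LPS 5 rose and 7 fell at 3.5 h (24.5%) and 9 rose and 2 fell at 16 h (27.6%). With library size scaling the LPS counts were 4 and 9 at 3.5 h and 5 and 4 at 16 h. Nos2, the inducible nitric oxide synthase gene, did not exceed 5 counts in a control library. At 3.5 h it averaged 49.3 ± 9.98 CPM (VWF) and 139 ± 26.2 CPM (LPS), and the levels at 16 h were 0.271 ± 0.162 CPM (VWF) and 2119 ± 792 CPM (LPS). Cxcr4, a chemokine receptor gene, fell at 3.5 h with VWF (−2.25, SE 0.16) and with LPS (−4.18, SE 0.20). Hmox1, the haem oxygenase gene, rose at 16 h with VWF (2.08, SE 0.18) and with LPS (3.57, SE 0.15), and the stress-response gene Ndrg1 fell with VWF at that time (−2.53, SE 0.22, to 9.63 ± 3.77 CPM). With LPS at 3.5 h, Hmox1 was called lower and Ndrg1 higher. Pdgfb, a growth factor gene, rose with VWF at 3.5 h (1.74, SE 0.09) and was higher with VWF than with LPS (2.96, SE 0.13). Edn1, the endothelin gene, rose with LPS at 3.5 h (5.31, SE 0.42) and 16 h (6.05, SE 0.27). It was also called higher with VWF at 3.5 h, at 7.35 ± 1.47 CPM against 2.90 ± 1.66 in controls.

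The members differed in their pattern over the 28 cultures. Across all cultures, which share treatments, times and differences in depth, the log2 CPM of Egln3 and Bnip3 had a Pearson correlation of 0.96, the highest of the 28 pairs of the 8 members that reach 10 TPM. Egln3 with Ankrd37 gave 0.81, Bnip3 with P4ha1 0.80 and Bnip3 with Ankrd37 0.79. By rank (Spearman correlation) these pairs gave 0.86, 0.50 and 0.87. Hif1a was not among these, with −0.30 against Egln3, −0.50 against Ankrd37 and 0.64 against Adm. The gene most like Hif1a among those reaching 10 TPM was Itga5, an integrin gene (0.96), followed by Zc3h12c (0.95). Bnip3 was nearest to Egln3 and the lactate dehydrogenase gene Ldha (0.96 each), P4ha1 to Treml2 (0.97) and Cnp (0.95), Ankrd37 to Nudt18 and Rab40c (0.96 each) and Egln3, after Bnip3, to Ccnd3 (0.95). Vegfa was nearest to Gnptab and Bcl6 (0.90 each), Adm to Rgs16 (0.94) and Fosl2 (0.91) and Egln1 to Lat2 (0.90) and Erf (0.88). These values describe the 28 cultures and carry no test.

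On the per-length scale, the order of the group means of Hif1a was VWF at 3.5 h (133 ± 14.7 TPM), control at 3.5 h (83.8 ± 18.3), LPS at 16 h (70.0 ± 6.35), LPS at 3.5 h (69.0 ± 5.30), VWF at 16 h (49.9 ± 7.77) and control at 16 h (38.3 ± 5.88). Control at 3.5 h and both LPS groups overlapped each with its neighbour in that order, as did VWF and control at 16 h. In CPM both LPS groups stood above control at 3.5 h, and TPM carries no TMM factor. The most abundant members by group mean were Bnip3 (180.03 ± 34.1 TPM) and P4ha1 (178 ± 29.3 TPM) with LPS at 16 h, then Hif1a with VWF at 3.5 h and Vegfa in controls at 3.5 h (121 ± 34.3 TPM). The highest group mean was 54.5 ± 8.63 TPM for Egln1, 15.7 ± 2.20 for Ankrd37, 9.65 ± 2.84 for Egln3 and 8.55 ± 1.57 for Adm.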

How the data were processed

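RNA of the 28 cultures was sequenced as paired reads of 150 bases. Per the labels and the study's methods, the authors aligned them to GRCm38 (mm10) with STAR, and they deposited whole-number counts of 54532 genes, not normalized. The STAR version, annotation, strand setting and treatment of multi-mapped reads: not given in the sources used here. Groups, times and replicate numbers came from the labels. The members and lists were chosen with earlier results of these data known.

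Counts of the groups compared were tested with edgeR 4.0.16 (robust quasi-likelihood test, TMM factors, R 4.3.3) after keeping genes with 10 TPM in at least 1 culture, using GENCODE M21 exon lengths. Benjamini-Hochberg adjustment covered every gene kept. A call needed an adjusted p under 0.05 together with a log2 fold change of 1 or more in either direction. The scripts were tested on simulated data. With 41131209 to 77699206 counts a library, 3 counts came to at most 0.0813 CPM, which covers counting error alone. Named were all 9 members, from each list the 3 called genes of largest change, and the 2 genes most correlated with each member.

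Alternatives were DESeq2 1.42.0, RLE factors, scaling by library size, other filters (filterByExpr, all 28 cultures, none), a fit of all groups, a replicate block, calls without the fold threshold and each culture left out. Those pairing another choice with no filter, and the separate account of Control 16 h replicate 5 and LPS 16 h replicate 4, were chosen after seeing the data. Same-numbered cultures deviated together (every r over 0.1) in 1 of 15 pairs of groups, VWF with LPS at 16 h, where r was 0.16 to 0.78 over 4 pairs, and what the numbers mark is not stated. No library repeated another (chi-square per degree of freedom of 17.1 or more in 52 pairs).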

Additional observations from a re-analysis of the deposited data

Results flagged for a closer look

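Of the 54 sets of cultures tested, each 1 gene in 1 group, 3 held a culture far from the others by Dixon's test, and chance gives about 1 in 20. Egln1 stood at 68.9 CPM in Control 3.5 h replicate 4, where the next highest control had 59.5, and at 65.2 CPM in VWF 16 h replicate 1, where the next highest had 48.0. Ankrd37 stood at 0.308 CPM in LPS 3.5 h replicate 1, where the next lowest had 0.651.

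The treatment effect differed between 3.5 h and 16 h, in 8 cases by the interaction term in edgeR (quasi-likelihood test, p adjusted after Benjamini and Hochberg). For VWF the log2 difference without the filter was −3.33 at Adm (adjusted p = 0.000131, and −3.33 with 0.000201 in the fit with the filter) and −1.30 at Epas1 (adjusted p = 0.00218). For LPS it was 3.08 at Vegfa (adjusted p = 6.17e-06), 2.45 at Bnip3 (adjusted p = 3.82e-07) and 1.06 at P4ha1 (adjusted p = 3.07e-05). At Egln3 the LPS value was 2.99 without the filter (3.03 with it, adjusted p = 6.36e-05). At Ankrd37 it was 2.96 without the filter (2.99 with it, adjusted p = 7.96e-06). At Epas1 the LPS value was −2.16 without the filter (adjusted p = 0.000229). By mean CPM, Vegfa, Egln3, Bnip3 and Ankrd37 stood below control with LPS at 3.5 h and above it at 16 h, though Ankrd37 did not pass the test at 16 h. The LPS values rest on 4 LPS-treated cultures a time, and VWF and LPS share the same control cultures.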

How the results depend on the processing

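Of 99 fold changes of members, 98 kept direction and call under DESeq2, 85 under library size scaling and 94 under the replicate block, as did 1028 of 1093 values with a culture left out. The count of members called was 1 for VWF against control at 3.5 h, but 2 with filterByExpr, no filter, the filter over all 28 cultures or the replicate block (which adds Adm, at 1.07 with the filter and 1.11 without), 4 without the fold threshold (beside 43.6% of all genes) and 0 to 2 with a culture left out. At 16 h it was 2, but 4 without the fold threshold (27.7%) and 1 to 2 with a culture left out. For LPS against control at 3.5 h it was 1, but 2 with library size scaling or filterByExpr, 3 without the filter or with the filter over all 28 cultures and 5 without the fold threshold (65.7%). For VWF against LPS at 3.5 h it was 1, but 2 with library size scaling, 5 without the fold threshold (50.2%) and 0 to 1 with a culture left out; without the filter, Ankrd37 was added by the replicate block (1.09, edgeR adjusted p = 0.0168) and Ankrd37 (1.26) and Adm (1.02) by library size scaling. Between times it was 2 in controls, but 4 without the filter or without the fold threshold (41.4%), and 4 with VWF, but 7 with filterByExpr or no filter. For the change of the VWF effect it was 1, but 2 with filterByExpr, no filter or no fold threshold (32.4%). P4ha1 for VWF against LPS at 16 h was −1.01 with filterByExpr or the filter over all 28 cultures, and Hif1a between times in controls −1.01 with library size scaling, both then called.

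Direction turned, among values that were not called, with library size scaling at Hif1a (−0.11), Epas1 (−0.48) and Adm (−0.35) for LPS at 3.5 h, at Egln1 (−0.56) and Ankrd37 (−0.14) for LPS at 16 h, at Egln3 for VWF at 16 h (−0.067), at Egln1 for VWF against LPS at 16 h (0.41) and at Hif1a for LPS between times (−0.042). With the replicate block it turned at Egln3 for VWF at 16 h (−0.056), at Egln1 for LPS at 16 h (−0.15) and at Egln1 for VWF against LPS at 16 h (0.0039). Where the numbers paired the cultures, the block changed no call of VWF against LPS at 16 h. A fit of all groups gave −0.051 at Egln1 for LPS at 16 h. Between times, P4ha1 in controls was −0.00024 without the filter and Hif1a with LPS −0.0034 with filterByExpr. With a culture left out the ranges crossed 0 for VWF at 16 h at Egln1 (−0.22 to 0.0082) and Egln3 (−0.41 to 0.29), for LPS at 3.5 h at Epas1 (−0.15 to 0.20) and Adm (−0.049 to 0.33), for LPS at 16 h at Egln1 (−0.15 to 0.077), for VWF against LPS at 16 h at Egln1 (−0.14 to 0.027), between times at Egln1 with VWF (−0.029 to 0.13) and at Hif1a (−0.025 to 0.081) and Adm (−0.24 to 0.41) with LPS, and for the change of the VWF effect at Vegfa (−0.19 to 0.20), Bnip3 (−0.028 to 0.35) and Ankrd37 (−0.024 to 0.41). The cause was not tested. Depth limits Adm with VWF at 16 h (12 to 32 counts) and Egln3 and Ankrd37 with LPS at 3.5 h (14 to 31 and 12 to 27 counts) the most.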

Other observations

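The pathway lists also moved with time. Of the 17 glycolytic genes, 7 rose and 2 fell between 3.5 h and 16 h in controls, 9 rose and 3 fell with VWF, and 12 rose and 1 fell of the 16 tested with LPS, when 9.11%, 21.4% and 28.1% of all genes tested were called. The counts with library size scaling were 6 and 2, 9 and 3, and 12 and 1. Pfkfb3, which encodes an activator of glycolytic flux, fell in controls (−1.80, SE 0.23) and with VWF (−2.32, SE 0.14) and rose with LPS (2.65, SE 0.21), in log2 fold change from the edgeR quasi-likelihood test. Of the other targets, 1 rose and 6 fell in controls, 4 rose and 9 fell with VWF and 9 rose and 1 fell with LPS, of 23 to 25 tested, beside the same shares of all genes.

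Between VWF and LPS at 16 h, 25.5% of all genes tested were called. Of the glycolytic genes 1 was higher and 4 were lower with VWF than with LPS, and with library size scaling 3 were higher and 3 lower. Pfkfb3 averaged 48.8 ± 9.54 CPM in the VWF group against 826 ± 174 in the LPS group (−4.08, SE 0.20). Of the 25 other targets tested, 2 were higher and 9 lower with VWF. Hilpda, a lipid droplet gene, averaged 8.63 ± 2.53 against 109 ± 38.9 CPM (−3.65, SE 0.31), and Edn1 1.04 ± 0.703 against 56.7 ± 6.27 CPM (−5.75, SE 0.49).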
